A study of Mus musculus with 6 samples.

Results

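Chromatin accessibility was examined at 8 genes that regulate self-renewal of blood stem cells, Meis1, Hlf, Mecom, Prdm16, Mllt3, Etv6, Zfp521 and Mycn. Peaks were chosen by name: a peak belonged to a gene when the deposited table gave that gene as the nearest transcription start site. This gave 145 of 109859 peaks, of which 55 were annotated to Etv6, 27 to Mllt3, 23 to Meis1, 14 to Zfp521, 9 each to Hlf and Mecom, 7 to Mycn and 1 to Prdm16. Peaks were thus picked by annotation and not by their values, but the genes were chosen with earlier results of these data known.

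ATAC-seq, an assay whose Tn5 transposase cuts open DNA and tags it for sequencing, was run on lineage-negative (Lin-) bone marrow cells of mice, the fraction that remains when cells with mature blood markers are removed. One group held 3 wildtype mice and the other 3 mice with a conditional Mel18 knockout in the blood system. Mel18 (gene Pcgf2) is a Polycomb protein of the repressive complex PRC1, and the study asked whether its loss alters accessibility in these cells. The sources used here name neither the Cre driver nor the allele, and give no strain or age for the mice.

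Stem cells persist for life because some of their divisions return daughter cells to the uncommitted state. A small group of transcription factors and cofactors keeps that state, and most of them are switched down as progenitors mature. Their genes are controlled by a promoter at the start site together with enhancers that may lie far away, inside introns or between genes, and both kinds of element appear as ATAC-seq peaks. Meis1 is a homeodomain partner of Pbx and Hox proteins. Hlf is a PAR bZIP factor of stem cells. Mecom encodes the zinc-finger proteins EVI1 and, from an upstream start, the longer MDS1-EVI1, and Prdm16 is its paralog. Mllt3 (AF9) is a YEATS-domain reader of acetylated histones that binds DOT1L and the elongation machinery. Etv6 (TEL) is a repressor of the ETS family, Zfp521 is a multi-zinc-finger cofactor, and Mycn is a Myc family factor.

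Total counts ran from 12000808 to 13769335 reads in wildtype libraries and from 14487908 to 16709921 in knockout libraries, all in peaks. Library numbers below are those of the table, since a library could be tied to its genotype but not to one mouse. Wildtype library 3 resembled its group least, with a mean Spearman correlation to the other members of 0.859, against 0.894 and 0.896 for the other wildtype libraries and 0.939 to 0.949 for knockout libraries. Each wildtype library correlated more with the knockout libraries than with its own group, at means of 0.922, 0.940 and 0.876 for libraries 1 to 3. No peak was annotated to Pcgf2 or lay in its RefSeq span, so accessibility there does not check the genotype labels. All 8 progenitor marker genes had a peak, while among mature markers Cd3e, Cd3d, Cd4 and Ncr1 had none within 1 kb and Ly6g had no peak at all. Summed accessibility at 10 T and NK cell genes ran from 468.7 to 543 CPM (read counts scaled to library size) in wildtype and from 413.7 to 436.5 CPM in knockout libraries, without overlap. Sums of single genes were lower in all knockout libraries, without overlap, for 19.3% of all 19013 genes. The other mature lists overlapped between groups. In wildtype library 3 the sums at B cell, T and NK cell, erythroid, and platelet and megakaryocyte genes were the highest of the 6 libraries. Its sums at progenitor, granulocyte and monocyte, and stroma and endothelium genes were the lowest. In bulk cells, fewer cells of a type and less open chromatin per cell cannot be told apart.

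Start sites were compared through RefSeq promoter windows (GRCm38.p6, the assembly of mm10) of 250 bases before to 50 bases after the start. Of the 8 genes, 7 matched, with 9 windows, because Mecom and Mllt3 have an upstream and an inner start. Peaks covered some part of 6 of these 9 windows, against 40.3% of 32817 windows of the genome. Etv6, Hlf, Meis1, Mycn and both Mllt3 starts carried a peak, while both Mecom starts and Prdm16 did not. The 5 windows below are shown because the results turn on them: Hlf and the Mllt3 starts carried peaks whose values are described further on, and Mecom and Prdm16, the paralog pair, had no peak over the start. In the first 3, capitals mark matches on either strand to the ETS motif CAGGAA, the E-box CAGCTG or the MEIS motif TGACAG.
Hlf, chr11:90390868-90391167, minus strand: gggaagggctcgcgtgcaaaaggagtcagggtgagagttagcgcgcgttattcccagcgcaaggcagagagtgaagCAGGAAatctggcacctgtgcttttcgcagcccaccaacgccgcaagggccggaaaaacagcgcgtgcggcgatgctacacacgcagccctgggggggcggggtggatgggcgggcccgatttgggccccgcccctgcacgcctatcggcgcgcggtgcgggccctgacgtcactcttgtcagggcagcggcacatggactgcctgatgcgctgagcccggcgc
Mllt3 upstream start, chr4:88033358-88033657, minus strand: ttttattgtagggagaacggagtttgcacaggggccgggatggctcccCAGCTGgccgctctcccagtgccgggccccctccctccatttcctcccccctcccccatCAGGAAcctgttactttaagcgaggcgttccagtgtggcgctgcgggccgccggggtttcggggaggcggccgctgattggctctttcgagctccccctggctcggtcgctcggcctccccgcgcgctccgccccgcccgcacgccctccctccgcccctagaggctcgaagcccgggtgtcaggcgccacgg
Mllt3 inner start, chr4:87806274-87806573, minus strand: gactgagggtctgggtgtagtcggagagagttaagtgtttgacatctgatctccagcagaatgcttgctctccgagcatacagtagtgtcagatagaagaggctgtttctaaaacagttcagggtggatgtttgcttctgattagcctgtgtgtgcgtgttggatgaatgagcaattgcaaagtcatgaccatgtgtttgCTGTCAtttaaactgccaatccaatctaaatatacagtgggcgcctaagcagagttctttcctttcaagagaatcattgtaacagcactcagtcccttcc
In the next 2, capitals mark the longest run of bases that both share.
Mecom upstream start, chr3:30509710-30510009, minus strand: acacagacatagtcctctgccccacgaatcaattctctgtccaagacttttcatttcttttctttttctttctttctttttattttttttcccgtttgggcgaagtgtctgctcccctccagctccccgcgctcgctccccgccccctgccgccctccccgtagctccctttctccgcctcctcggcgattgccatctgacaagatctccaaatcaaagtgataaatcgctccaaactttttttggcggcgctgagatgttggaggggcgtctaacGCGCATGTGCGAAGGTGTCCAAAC
Prdm16, chr4:154636824-154637123, minus strand: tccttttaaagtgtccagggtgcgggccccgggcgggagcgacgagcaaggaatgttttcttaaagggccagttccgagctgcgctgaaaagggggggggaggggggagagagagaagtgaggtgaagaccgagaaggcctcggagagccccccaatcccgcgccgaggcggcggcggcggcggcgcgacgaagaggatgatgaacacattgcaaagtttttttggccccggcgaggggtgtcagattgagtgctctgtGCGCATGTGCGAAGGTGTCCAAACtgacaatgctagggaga

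The shared run of the Mecom and Prdm16 windows was 24 bases long. It lay at bases 277 to 300 of the Mecom window and 260 to 283 of the Prdm16 window, downstream of the annotated starts. Among all other pairs of the 9 windows the longest shared run was 15 bases. Both windows were rich in CpG, with an observed to expected ratio of 1.02 for Mecom and 0.939 for Prdm16, against a median of 0.383 over all windows. A CpG-rich start without a peak thus stood beside CpG-rich starts with one, such as Hlf (0.893) and the upstream start of Mllt3 (0.795). The inner start of Mllt3 had a ratio of 0.272 and 44.7% G and C, below the medians of all windows (0.383 and 52.7%), and lay within a peak over all of its 300 bases.

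Motifs were searched as exact letters on both strands. The ETS motif CAGGAA was found in the Etv6, Hlf and upstream Mllt3 windows, against 30.6% of all windows. The MEIS motif TGACAG was found in the inner Mecom, inner Mllt3 and Mycn windows, against 19.2% of all windows. The RUNX motif TGTGGT and the PAR bZIP letters (TTACGT or TTACAT) were found in the Meis1 window alone, against 16.8% and 12.5% of all windows. The E-box CAGCTG was found in the upstream Mllt3 window alone (16.3% of all windows), and the GATA motif AGATAA in none of the 9 (11.2% of all windows). A match describes letters in the window and not a bound site.

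None of the 145 peaks passed the test of knockout against wildtype (edgeR's quasi-likelihood test, Benjamini-Hochberg adjusted p over all 109859 peaks, threshold 0.05), and 0% of all peaks passed. limma-voom also called 0 of them, against 0.276% of all peaks (303). DESeq2 called 0 as well, but gave only 2 of the 145 an adjusted p. The smallest adjusted p was 0.218, at an intron of Hlf. At an unadjusted p under 0.05, 10 peaks were higher in knockout libraries and 2 were lower, against 3.1% of all peaks higher and 5.97% lower. In the table deposited by the authors, 0 of the 145 passed, against 3 of all 109859 peaks. The smallest adjusted p of the 145 was 0.301 there.

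Knockout values lay above wildtype values more often than not. The log2 fold change (knockout over wildtype) was above 0 at 103 of 145 peaks (71.0%), against 51.8% of all peaks, and its median was 0.17 against 0.02 over all peaks. The libraries of the groups did not overlap at 20 peaks with knockout higher, against 7.63% of all peaks, and at 3 with knockout lower, against 8.01%. Etv6 held 46 of the 103 and 11 of the 20. Without its 55 peaks the median of the other 90 was 0.07, and 57 of 90 lay above 0. Under a normalization that follows the level of the peak (trended), the median of the 145 was 0.10 against -0.02 over all peaks, and that of the 90 was -0.01, with 44 of 90 above 0. In that fit 8 of the 145 were higher at an unadjusted p under 0.05, against 2.26% of all peaks, and 2 were lower, against 3.38%. Of the 8, 6 belonged to Etv6 and 1 each to Hlf and Mecom, and both lower peaks belonged to Mllt3. Without wildtype library 3 the median of the 145 was 0.14 against 0.02 over all peaks, and 93 of them lay above 0.

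**Figure D1:**
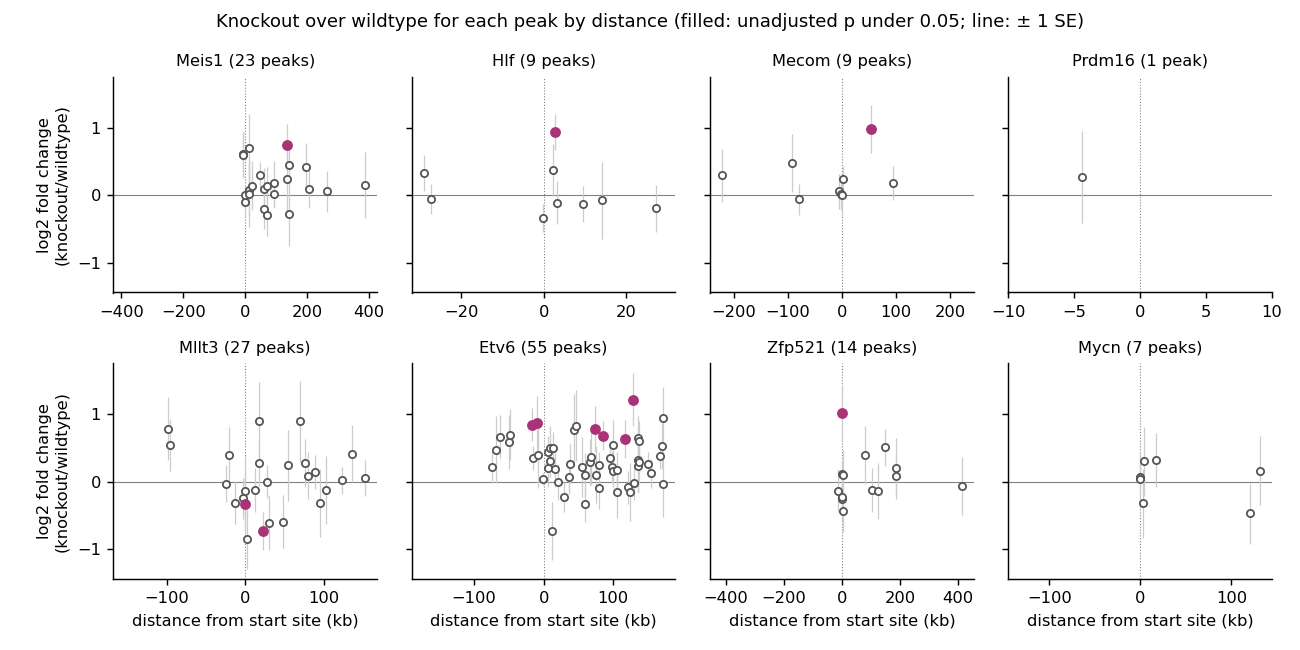
Log2 fold change of each of the 145 peaks (y axis, knockout over wildtype, with lines of 1 SE on either side) by distance from the gene's start site in kb (x axis), 1 panel per gene. Filled points have an unadjusted p under 0.05. They number 6 for Etv6, 2 for Mllt3, both below 0, and 1 each for Meis1, Hlf, Mecom and Zfp521.

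By the deposited annotation, 97 of the 145 peaks lay in introns, 40 between genes, 2 in exons and 6 over a start. Of the 40, 4 lay inside the RefSeq span of Mecom. Within 1 kb of the start there were 11 peaks and beyond it 134. The median log2 fold change of the 11 was 0.01, against -0.15 over all 21892 such peaks in the table, and that of the 134 was 0.20, against 0.06 over all 87967. Under the trended normalization the corresponding medians were -0.07 against -0.07 and 0.10 against 0.00. Of the 134, 71.6% had a log2 fold change above 0, against 57.2% of the 87967, and 62.7% against 50.2% under the trended normalization. Without overlap, 18 of the 134 were higher and 2 lower, beside 7583 and 3641 of the 87967. At an unadjusted p under 0.05 in edgeR's test, 9 were higher and 1 lower, beside 3165 and 2376.

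Meis1 had 23 peaks over a wide region, the farthest 386396 bp from the start. The peak over its start gave 26.8, 21.9 and 21.3 CPM in wildtype libraries 1 to 3 and 22.5, 25.2 and 22.4 CPM in knockout libraries 1 to 3. The groups overlapped and their means were almost equal, and the log2 fold change was 0.00, with a standard error (written after ± for every log2 fold change below) of 0.150 (adjusted p = 0.999). The Meis1 peak with the highest level lay in an intron 93830 bp downstream and gave 26.2, 31.3 and 16.5 CPM in wildtype and 22.7, 25.1 and 27.3 CPM in knockout libraries. Wildtype library 3 was the lowest of the 6 there, and the difference of 0.02 ± 0.208 became -0.20 without it.

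An intron peak of Meis1 at 135276 bp was the one with the smallest p. It held 23, 16 and 40 reads in wildtype libraries and 66, 49 and 58 reads in knockout libraries, or 2.04, 1.37 and 2.98 against 3.82, 3.23 and 3.73 CPM. All knockout libraries lay above all wildtype libraries, with a log2 fold change of 0.74 ± 0.322 (adjusted p = 0.511). A stronger intron peak at 48816 bp also did not overlap between groups, with 17.4, 14.97 and 12.0 CPM in wildtype and 18.2, 17.9 and 18.8 CPM in knockout libraries (log2 fold change 0.31 ± 0.184, adjusted p = 0.677). The lower peak with the smallest p lay at 70162 bp, with 2.12, 1.88 and 1.86 against 1.74, 1.72 and 1.35 CPM (log2 fold change -0.29 ± 0.322, adjusted p = 0.861). Of the 23 log2 fold changes, 19 were above 0, and 15 were under the trended normalization or without wildtype library 3.

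**Figure D2:**
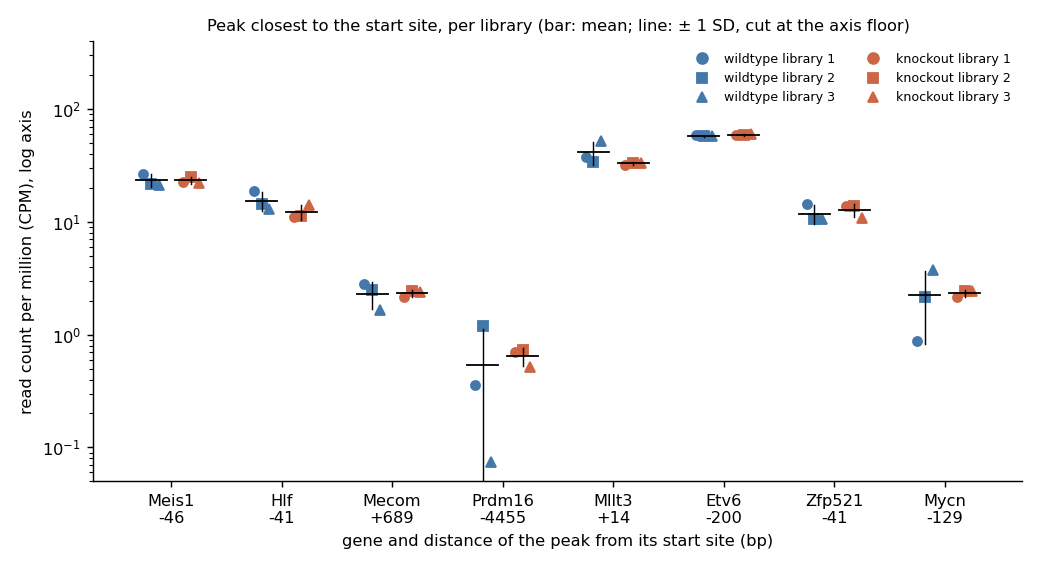
Accessibility of the peak closest to the start site of each gene (y axis, CPM on a log scale) in each of the 6 libraries, with bars at the group means and lines of 1 SD. The groups overlap at 6 of the 8 genes. All knockout libraries lie below wildtype at Mllt3 and, by a small margin, above it at Etv6. Of all 21892 peaks within 1 kb of a start, 5161 were lower and 795 higher in all knockout libraries.

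Hlf combined a start that was lower in the knockout with an intron peak nearby that was higher, neither passing the test. The peak over the Hlf start, which covered bases 76 to 300 of the window printed above, gave 18.8, 14.5 and 13.1 CPM in wildtype and 11.1, 11.3 and 14.3 CPM in knockout libraries. The groups overlapped through knockout library 3, and the log2 fold change was -0.34 ± 0.208 (adjusted p = 0.691). The median over all 21892 peaks within 1 kb of a start was also below 0, at -0.15. Under the trended normalization the Hlf start was at -0.31, against a median of -0.07. The highest Hlf peak by mean CPM lay upstream at -27169 bp and gave 17.9, 11.1 and 13.8 against 16.4, 11.8 and 13.0 CPM, a log2 fold change of -0.05 ± 0.223 (adjusted p = 0.972).

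The peak with the smallest p of all 145 lay in an Hlf intron at chr11:90388183-90388351, 2650 bp downstream of the start. It held 26, 29 and 26 reads in wildtype libraries and 73, 69 and 65 reads in knockout libraries, which is 2.30, 2.48 and 1.94 against 4.23, 4.55 and 4.18 CPM. The groups were far apart for their spread, with a fold of 1.93 and a log2 fold change of 0.95 ± 0.265, but the adjusted p was 0.218. Its log2 fold change was 0.86 under the trended normalization and 0.86 without wildtype library 3. The authors' deposited table gives it a log2 fold change of 0.95 and an adjusted p of 0.301.

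With this peak, 3 of the 9 Hlf log2 fold changes were above 0 and the median was -0.07. The other two above 0 were at -29027 bp (0.34) and 2364 bp (0.38). The log2 ratio of reads outside to reads within 1 kb of the start was 1.05, 0.98 and 1.12 in wildtype and 1.67, 1.61 and 1.14 in knockout libraries. The means differed by 0.42. The groups did not overlap, but knockout library 3 lay above wildtype library 3 by a narrow margin. The two-sided exact permutation p was 0.1, below which 3 against 3 cannot go. With a window of 3 kb, which takes in the peak at 2650 bp, the difference was 0.04 and the groups overlapped. This ratio was higher in all knockout libraries for 20.6% of 10517 genes.

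Mecom had no peak over either start. The closest peak to the upstream (MDS1-EVI1) start in the table lay at 689 bp and gave 2.83, 2.48 and 1.64 CPM in wildtype and 2.14, 2.44 and 2.38 CPM in knockout libraries, with a log2 fold change of 0.01 ± 0.315 (adjusted p = 0.998). RefSeq places that start farther upstream, 962 bp from the same peak. The nearest peak to the inner (EVI1) start lay at -2230 bp from it, upstream. The highest Mecom peak lay at 1063 bp in the first kilobases of the gene and gave 13.7, 12.4 and 9.99 against 15.1, 13.9 and 13.6 CPM, a log2 fold change of 0.24 ± 0.195 (adjusted p = 0.787).

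Far inside the gene, an intron peak at 53384 bp from the upstream start held 13, 13 and 12 reads in wildtype and 35, 25 and 40 reads in knockout libraries. All knockout libraries were higher, with a log2 fold change of 0.98 ± 0.359 (adjusted p = 0.399). The 1 Mecom peak below 0, at 78894 bp upstream of the inner start, gave 5.58, 4.70 and 5.14 against 4.98, 4.55 and 5.27 CPM (log2 fold change -0.06 ± 0.230, adjusted p = 0.970). Of the 9 log2 fold changes 8 were above 0, and 5 were under the trended normalization. Summed over all 9 peaks, Mecom gave 37.8, 33.8 and 31.2 CPM in wildtype and 39.6, 38.1 and 38.01 CPM in knockout libraries. The groups did not overlap, as for 4.14% of all 19013 genes with knockout higher and 19.3% with knockout lower, and the log2 fold change was 0.17 ± 0.114 (adjusted p = 0.499, edgeR over all genes).

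Prdm16 had 1 weak peak, at 4455 bp upstream of the start, with 4, 14 and 1 reads in wildtype and 12, 11 and 8 reads in knockout libraries. These counts overlap, and the log2 fold change of 0.28 ± 0.683 (adjusted p = 0.946) was -0.27 without wildtype library 3. That peak lay outside the RefSeq span of the gene. The span itself held 13 peaks, all of which the table annotated to neighbours with nearer starts, 8 to 5930403L14Rik and 5 to Arhgef16. Their log2 fold changes ran from -0.63 to 0.57, 8 of 13 above 0, with a smallest unadjusted p of 0.0617 in edgeR's test. The peak nearest to the RefSeq start of Prdm16 was 1 of these, 1066 bp downstream. Assignment by nearest start therefore left all 13 peaks inside the span of Prdm16 out of the 145. The same held for 5 peaks inside Etv6 that were annotated to Bcl2l14, of which 4 were above 0, with log2 fold changes from -0.01 to 0.75.

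Wildtype library 3 was the highest library at 11 of the 27 Mllt3 peaks (40.7%, against 25.6% of all peaks). The peak over the upstream start, bases 78 to 300 of the window printed above, gave 38.1, 34.0 and 52.4 CPM in wildtype and 32.0, 33.6 and 33.6 CPM in knockout libraries. All knockout libraries lay below all wildtype libraries, by a narrow margin from wildtype library 2. Knockout was lower without overlap at 5161 of all 21892 peaks within 1 kb of a start. The log2 fold change at the upstream Mllt3 start was -0.33 ± 0.151 (adjusted p = 0.548). Without wildtype library 3 it was -0.12 (adjusted p = 0.689). Per kb of peak this was the highest start of the 8 genes, at 110.6 ± 25.8 CPM per kb (SD, n = 3) in wildtype and 88.1 ± 2.45 in knockout libraries. The start of Meis1 followed with 76.1 ± 9.86 in wildtype and 76.1 ± 5.16 CPM per kb in knockout libraries.

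The inner Mllt3 start, named after its values were seen, varied more within groups than between them. It held 46, 104 and 304 reads in wildtype and 295, 117 and 118 reads in knockout libraries, or 4.07, 8.90 and 22.7 against 17.1, 7.72 and 7.59 CPM. Wildtype library 3 and knockout library 1 were high and the other 4 were low, with wildtype values spanning 5.57-fold. The log2 fold change was -0.14 ± 0.531 (adjusted p = 0.969). The same 2 libraries had the highest sums at the erythroid marker genes, with 328.7 CPM in wildtype library 3 and 249.6 CPM in knockout library 1 against 174 to 201.9 CPM in the other 4. They were also highest at the platelet and megakaryocyte genes, with 117.3 and 106.1 CPM against 83.6 to 88.6 CPM in the other 4. The part of these marker sums in the spread at this start was not tested.

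The lower Mllt3 peak with the smallest p lay in an intron at 22758 bp and gave 10.4, 6.42 and 13.0 against 5.39, 5.28 and 7.40 CPM. The groups overlapped, and the log2 fold change was -0.73 ± 0.280 (adjusted p = 0.434). The higher one with the smallest p, at 98581 bp upstream of the inner start, held 13, 5 and 27 against 34, 25 and 42 reads (log2 fold change 0.79 ± 0.467, adjusted p = 0.676). The 27 log2 fold changes split into 14 above and 13 below 0, with a median of 0.00. Summed over the gene, Mllt3 gave 124.6, 118 and 190.6 CPM in wildtype and 132.6, 122.6 and 129.4 CPM in knockout libraries. The log2 fold change was -0.17 ± 0.165 (adjusted p = 0.673) with all libraries and 0.09 (adjusted p = 0.535) without wildtype library 3.

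Etv6 had the most peaks, 55. Its log2 fold change was above 0 at 46 of 55 peaks, with a median of 0.29 against 0.02 over all peaks. Under the trended normalization 45 lay above 0, and without wildtype library 3 it was 42, with medians of 0.25 and 0.24. The libraries did not overlap at 11 of the 55 with knockout higher and at 0 with knockout lower, against 7.63% and 8.01% of all peaks. At an unadjusted p under 0.05, 6 were higher and 0 lower, against 3.1% and 5.97% of all peaks. None passed the adjusted test.

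**Figure D3:**
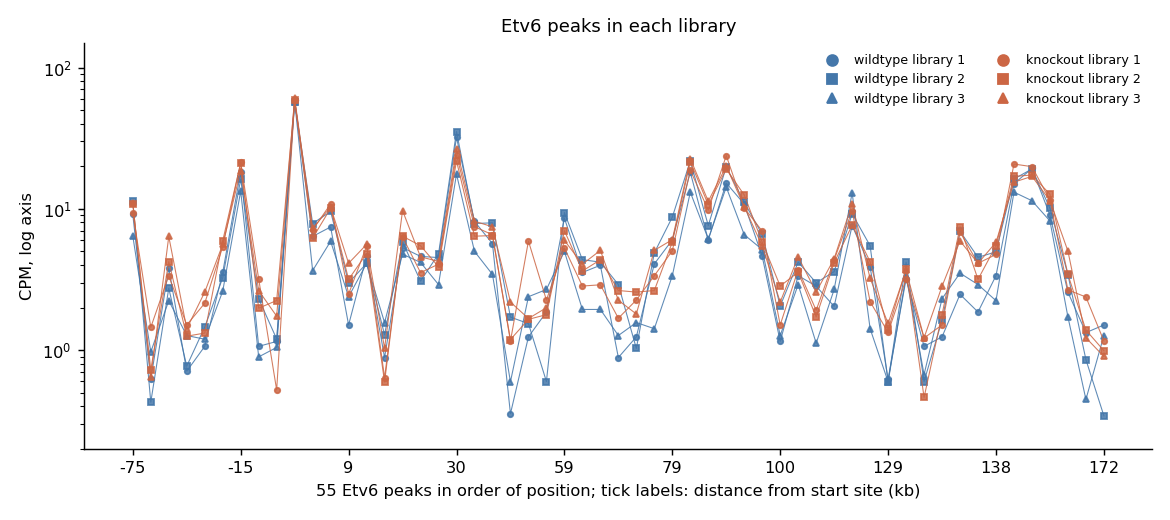
Accessibility of the 55 Etv6 peaks (y axis, CPM on a log scale) in the order of their position along the gene (x axis), 1 line per library. The start peak is the highest point, at 57.3 to 60.8 CPM in all libraries, and wildtype library 3 runs lowest at 31 of the 55 peaks.

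The start of Etv6 was the least variable peak described here. It gave 58.5, 57.3 and 57.3 CPM in wildtype and 58.9, 58.7 and 60.8 CPM in knockout libraries. The groups did not overlap, but by under 1 CPM. Knockout was higher without overlap at 795 of all 21892 peaks within 1 kb of a start. The log2 fold change of the Etv6 start was 0.04 ± 0.084 (adjusted p = 0.933). It was 0.27 under the trended normalization (unadjusted p = 0.00794, edgeR). At 1203 bases this peak was wide, so that per kb it stood at 48.0 ± 0.578 CPM per kb in wildtype and 49.4 ± 0.972 in knockout libraries, below the starts of Mllt3 and Meis1.

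The Etv6 peak with the smallest p lay upstream of the gene at chr6:134018925-134019107, 16684 bp before the start. It held 40, 38 and 35 reads in wildtype and 93, 90 and 87 reads in knockout libraries, or 3.54, 3.25 and 2.61 against 5.39, 5.94 and 5.60 CPM. All knockout libraries lay well above wildtype, with a log2 fold change of 0.85 ± 0.247 (adjusted p = 0.244). An intron peak at 85204 bp gave 6.02, 7.61 and 6.11 against 9.79, 10.7 and 11.3 CPM, again without overlap (log2 fold change 0.69 ± 0.214, adjusted p = 0.288). A weak intron peak at 129175 bp had the largest log2 fold change of the 55, 1.22 ± 0.393 (adjusted p = 0.312), from 7, 7 and 8 against 23, 21 and 24 reads. The lower peak with the smallest p, at 12467 bp, held 10, 15 and 21 against 11, 9 and 16 reads (log2 fold change -0.73 ± 0.428, adjusted p = 0.674).

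Wildtype library 3 was the lowest library at 31 of the 55 Etv6 peaks (56.4%), against 31.6% of all peaks. The sum over the gene was 349.1, 394.9 and 284.2 CPM in wildtype and 392.5, 387 and 410.1 CPM in knockout libraries. The groups overlapped through wildtype library 2, and the log2 fold change of 0.21 ± 0.109 (adjusted p = 0.371) was 0.10 (adjusted p = 0.411) without wildtype library 3. The granulocyte and monocyte marker sum was 237.9 CPM in that library, against 356.1 to 417 CPM in the other 5. The progenitor sum (552 against 596.2 to 642.1 CPM) and the stroma and endothelium sum (194.7 against 219.2 to 237.4 CPM) were also lowest there. The part of these sums in the Etv6 values was not tested. An intron peak at 29574 bp, named after its values were seen, gave 32.1, 35.2 and 17.6 against 24.1, 21.8 and 26.4 CPM. Its log2 fold change was -0.23 ± 0.225 (adjusted p = 0.834). Without wildtype library 3 it was -0.48 with an adjusted p of 0.0264, the 1 member peak that passed in any fit of these libraries, beside 2.45% of all peaks that were lower and 0.29% that were higher in that fit.

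Zfp521 had 14 peaks with equal numbers above and below 0. The peak over its start gave 14.4, 10.7 and 10.5 CPM in wildtype and 13.7, 13.8 and 10.9 CPM in knockout libraries, with a log2 fold change of 0.11 ± 0.211 (adjusted p = 0.930). A small peak 255 bp downstream, in an exon, held 6, 8 and 18 reads in wildtype and 31, 25 and 29 reads in knockout libraries. The groups did not overlap, and the peak had a log2 fold change of 1.02 ± 0.415 (adjusted p = 0.470). An intron peak at 2602 bp went the other way, at 2.66, 2.65 and 2.68 against 2.43, 1.45 and 1.99 CPM, without overlap (log2 fold change -0.44 ± 0.310, adjusted p = 0.750). The log2 ratio of distal to start reads was 1.16, 1.28 and 1.203 in wildtype and 1.03, 0.84 and 1.16 in knockout libraries. The means differed by -0.20 (two-sided exact permutation p = 0.1). The groups did not overlap, by a narrow margin, at 1.161 in wildtype library 1 against 1.159 in knockout library 3. A lower ratio in all knockout libraries was seen for 2.62% of 10517 genes, and with a 3 kb window the difference for Zfp521 was 0.14.

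Mycn had 7 peaks. The strongest lay 724 bp upstream of the start and gave 9.65, 8.72 and 11.8 CPM in wildtype and 10.4, 11.1 and 10.2 CPM in knockout libraries, with a log2 fold change of 0.07 ± 0.206 (adjusted p = 0.959). The closest to the start, 129 bp upstream, held 10, 25 and 50 against 37, 37 and 38 reads. Its wildtype libraries spread on both sides of the knockout libraries (log2 fold change 0.04 ± 0.423, adjusted p = 0.991). At 17175 bp and 120163 bp the reads ran from 13 to 32 and from 6 to 15 in the 6 libraries, with adjusted p of 0.878 and 0.830. Wildtype library 3 was highest at 4 of the 7.

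Summed per gene over all peaks, 0 of the 8 genes passed edgeR's test over 19013 genes (0% of all genes), and 0 had an unadjusted p under 0.05, against 1.55% of genes higher and 15.3% lower. This count depends on scaling. Under the trended normalization, Etv6 (log2 fold change 0.37, unadjusted p = 0.00157) and Meis1 (0.28, unadjusted p = 0.00671) were under 0.05 with knockout higher in edgeR's test, against 4.05% of genes. With factors from the summed table itself these were Etv6, Meis1 and Mecom (unadjusted p = 0.0285, 0.0349 and 0.0407 in edgeR's test), against 4.39% of genes. Their adjusted p was 0.533 in the first fit and 0.419 to 0.436 in the second. Without wildtype library 3, again 0 of the 8 passed, against 10.5% of all genes. Within 1 kb of the start, 0 of 7 genes passed, against 19.5% of 12998 genes, nearly all of them lower (19.3% lower and 0.231% higher). The log2 fold changes of these 7 sums ran from -0.34 for Hlf (adjusted p = 0.231) to 0.20 for Zfp521 (adjusted p = 0.490), with a median of 0.01 against -0.18 over all genes. At an unadjusted p under 0.05 there was likewise 0 of 7, against 0.877% of genes higher and 31.9% lower. The groups did not overlap at Etv6, with knockout higher, as for 2.26% of 13008 genes, and at 0 of the 7 with knockout lower, against 33.4%. Here too the counts depend on scaling. With trended normalization, or with factors from the summed table, 0.00769% of genes passed (1 gene each time). The unadjusted p of Etv6 was then 0.00435 and 0.0131, with knockout higher, against 4.72% and 5.62% of genes under 0.05 in that direction. Zfp521 was under 0.05 in the second of these fits alone (unadjusted p = 0.0411, edgeR). Beyond 1 kb, 0 of 7 genes passed and 0% of 16504 genes did, and 0 of the 7 had an unadjusted p under 0.05, against 2.34% of genes higher and 1.94% lower. The groups did not overlap at Mecom, with knockout higher, as for 7.26% of 16523 genes, and at 0 genes with knockout lower, against 4.33%. Without wildtype library 3, 0 of the 8 passed here (1.53% of all genes) and 0 of 7 near the start (22.4%). With all libraries the distal log2 fold change was highest for Etv6 at 0.24 ± 0.134 (adjusted p = 0.990). Its unadjusted p was 0.00860 under the trended normalization, where 1.81% of genes were higher at under 0.05, and 0.132 with factors from the summed table, where 0 of the 7 were under 0.05, against 1.73% of genes higher. The ratio of distal to start reads was higher in the knockout mean for 5 of 7 genes, against 75.5% of 10517 genes.

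**Figure D4:**
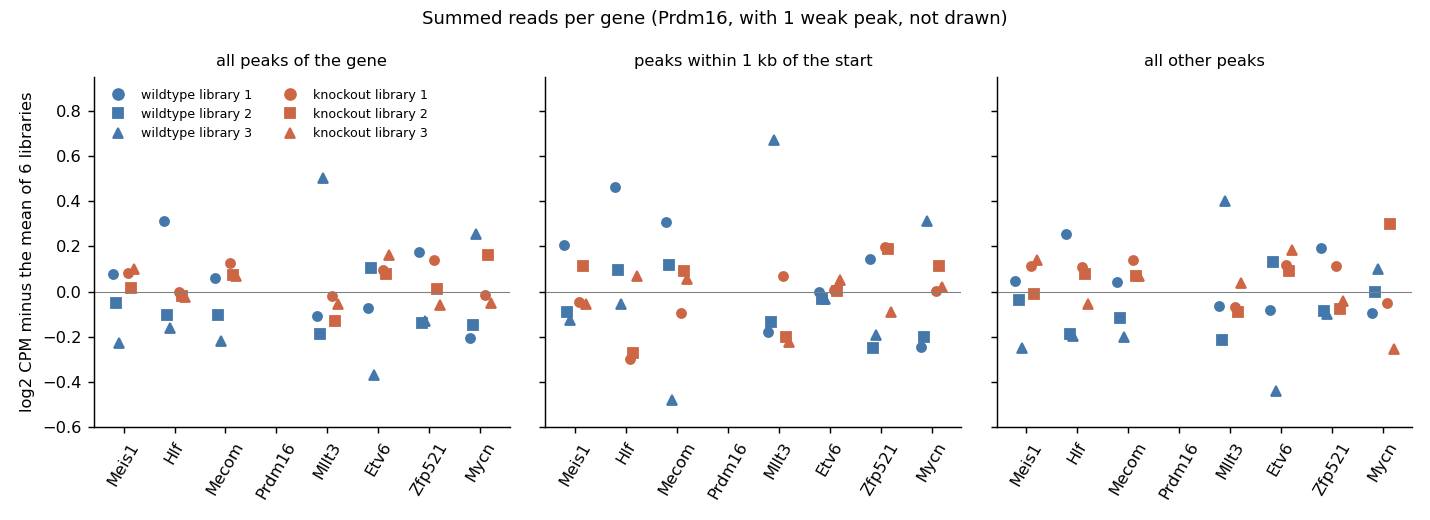
Log2 CPM of the summed reads of each gene minus its mean over the 6 libraries (y axis), over all peaks, over peaks within 1 kb of the start and over all other peaks (panels from left to right). Wildtype library 3 is the highest point for Mllt3 in all panels and the lowest for Etv6 over all peaks and over distal peaks, and the Mecom sum over all peaks separates the groups.

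Partners and paralogs of the 8 proteins were taken as a list of 36 genes, of which 35 had a peak. Of 34 with reads within 1 kb of a start, 7 passed as lower and 0 as higher, against 19.3% and 0.231% of all genes. The 7 were Max and Mxd1 (the partner of Myc proteins and its antagonist), Tef (a PAR bZIP relative of Hlf), Pknox1 (a TALE relative of Meis1), Aff4 and Dot1l (elongation factor and histone methyltransferase that bind Mllt3), and Prdm1. At Max, 121 ± 10.3 CPM in wildtype stood against 93.9 ± 3.94 CPM in knockout libraries (SD, n = 3), a log2 fold change of -0.37 (adjusted p = 0.00658). At Tef, 178.4 ± 9.58 CPM stood against 140.6 ± 12.9 CPM (log2 fold change -0.34, adjusted p = 0.00796). None of the 7 passed under the trended normalization (adjusted p = 0.615 to 0.968) or with factors from the summed table.

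A list of 33 other self-renewal genes all had peaks. Of 30 with reads near a start, 1 passed as higher and 5 as lower, against 0.231% and 19.3% of all genes. The higher gene was Myct1, a direct target of Myc proteins named for that role and active in stem cells, at 1.97 ± 0.556 CPM in wildtype and 4.22 ± 0.847 CPM in knockout libraries (log2 fold change 1.09 ± 0.302, adjusted p = 0.0208). The lower genes were Rad21 (a cohesin subunit), Zfx, Foxo3, Trim28 and Cdkn1c (a cell cycle inhibitor), with log2 fold changes from -0.43 to -0.26. None of these 6 passed under the trended normalization or with factors from the summed table, where the log2 fold change of Myct1 was 1.11 and 1.28 (adjusted p = 0.390 and 0.279). At single peaks 0 of either list passed (0% of all peaks). At an unadjusted p under 0.05 there were 6 higher and 19 lower of the 312 peaks of partners and paralogs, and 25 higher and 23 lower of the 455 peaks of the other list, against 3.1% higher and 5.97% lower over all peaks.

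All peaks of the 8 genes together held 0.0711% ± 0.00201 of the reads of wildtype libraries and 0.0829% ± 0.00188 of those of knockout libraries (SD, n = 3). Scaled by TMM, their sum was 757.5, 759.5 and 708.2 CPM in wildtype and 800.9, 775.8 and 808.1 CPM in knockout libraries, with Etv6 as the largest part. Peaks within 1 kb of a start made up 24.3% ± 3.44 of these reads in wildtype and 21.4% ± 0.622 in knockout libraries, against 53.9% ± 1.70 and 50.2% ± 0.284 of all reads in peaks. The 3 genes whose summed log2 CPM was most like this sum over the 6 libraries were Ccdc125, Csmd1 and 4930581F22Rik, with Pearson correlations of 0.993, 0.992 and 0.991. Of 8212 genes with at least 5 peaks, 159 (1.94%) were above 0.9, and all values share the same 6 libraries.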

How the data were processed

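The table deposited by the authors holds raw read counts per peak for 6 libraries, 3 from wildtype and 3 from Mel18 knockout mice. It also holds, per the file headers, the authors' log2 fold change and their p-value with its adjusted form, quoted above only where the deposited table is named. The submitters' processing notes name build mm10 and, without role or order, MACS2 2.1.1, Bowtie2 1.2.2, Trimmomatic 0.40, Picard, MultiQC 0.11.5 and FastQC. The version numbers are printed as listed there. The sources used here do not say how reads were counted, shifted for Tn5 or cleared of duplicates, and each step can move counts. A further 12 columns with a value per library stayed out of every step. Columns name a genotype but no mouse, so libraries were matched to groups only. The labels give separate mice.

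Counts were tested with edgeR 4.0.16 (R 4.3.3; TMM, filterByExpr, quasi-likelihood, robust) on all 109859 peaks, of which 0 were removed, with Benjamini-Hochberg adjustment and a threshold of 0.05. Adjusted p-values come from this test unless named otherwise. SE is the log2 fold change divided by the root of F. CPM uses TMM library sizes. Sums per gene were tested over all genes with the peak table's factors, and filterByExpr removed 10 promoter sums and 19 distal sums, the Prdm16 distal sum among them. The steps were checked on simulated counts. Trended normalization used loess offsets (span 0.3). DESeq2 1.42.0, limma-voom (limma 3.58.1), other scalings and filters, leaving out each library, assignment by gene span and a 3 kb promoter window were alternatives. Each gene's closest, highest and smallest-p peaks were named. The members, lists and tests were chosen with earlier results of these data known. Positions are counted from 1, and distances run from the table's start to the peak's middle. Depth limits weak peaks, where few reads a library make the counting error alone large.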

Additional observations from a re-analysis of the deposited data

How the results depend on the processing

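No paired analysis was possible because the labels number mice 1 to 6 across both groups, so that no number is shared. Of 675 recomputed values of single peaks, sums and ratios, 0 changed their side of the threshold, 64 changed sign and 2 ratios moved (Hlf to 0.04 and Zfp521 to 0.14, with a 3 kb window). The cause of the sign changes was not tested. At an unadjusted p under 0.05 there were 24 higher and 0 lower peaks with library size alone (median log2 fold change 0.28). There were 5 and 1 with DESeq2's Wald test, and 12 and 1 with limma-voom. TMM factors were 0.941 to 0.974 in wildtype and 1.03 to 1.05 in knockout libraries, so leaving them out raises every peak in the knockout relative to wildtype. No share of all peaks is given here for these counts or those below, so they cannot be set against one. The median was 0.10 with trended normalization, and 0.084, with 4 lower peaks, with that and without wildtype library 3 (chosen after seeing the data). Leaving out 1 library gave 5 to 15 higher and 0 to 5 lower peaks, medians from 0.12 to 0.22, and 0 to 1 lower peaks past the adjusted threshold.

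Sign changes by setting were as follows. With DESeq2 size factors, the Mecom peak at 689 bp and the Meis1 start peak were -0.0061 and -0.014. The promoter sums of these genes were -0.0050 and -0.014, and the distal sum of Mycn was -0.0099. With DESeq2's Wald test the same Mecom and Meis1 peaks were -0.0063 and -0.014. With library size alone, Hlf was 0.070 at -27169 bp and 0.078 in sum, Mecom 0.064 at -78894 bp, and the distal sums of Mllt3 and Zfp521 were 0.014 and 0.12. With trended normalization, Mecom at 689 bp was -0.097, Mycn at -129 bp -0.074, the Hlf sum 0.055 and the Mycn distal sum -0.068. Also without wildtype library 3, Hlf at -27169 bp was 0.011, Mecom at 689 bp -0.29, Meis1 at 93830 bp -0.036, the Mllt3 start 0.070 and Prdm16 -0.51. With factors of the summed table (also added later), the Hlf sum was 0.043 and the Mycn distal sum -0.035. With a 3 kb window, the Meis1 promoter sum was -0.020 and the Hlf and Zfp521 distal sums -0.035 and 0.13.

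Ranges over the fits that leave out 1 library were -0.22 to 0.10 for Hlf at -27169 bp and -0.19 to 0.15 for the Mecom peak at 689 bp and the Mecom promoter sum. For the Meis1 start peak and promoter sum they were -0.063 to 0.080 and -0.063 to 0.079, and for Meis1 at 93830 bp -0.20 to 0.22. They were -0.37 to 0.63 and -0.052 to 0.21 for Mycn at -129 and -724 bp, and -0.27 to 1.60 for Prdm16 (peak and sum). For sums over a gene they were -0.13 to 0.083 (Hlf), -0.33 to 0.086 (Mllt3), -0.072 to 0.22 (Mycn) and -0.019 to 0.13 (Zfp521). For promoter sums they were -0.48 to 0.054 (Mllt3) and -0.073 to 0.27 (Mycn), and for distal sums -0.017 to 0.21 (Hlf), -0.26 to 0.10 (Mllt3), -0.15 to 0.13 (Mycn) and -0.074 to 0.061 (Zfp521). The smallest adjusted p of the 145 peaks ran from 0.0264 (without wildtype library 3) to 0.876 (trended normalization). Without 1 wildtype library, the group keeps 2 samples.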

Other observations

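Among the peaks of partners, paralogs and other self-renewal genes, the 4 higher ones with the smallest unadjusted p were at Nfia (67538 bp, 1.06 ± 0.215 CPM in wildtype and 2.62 ± 0.332 CPM in knockout libraries, SD, n = 3; log2 fold change 1.31, adjusted p = 0.174, edgeR), at Runx1, the core factor of blood stem cell formation (-18723 bp, 1.83 ± 0.404 against 3.94 ± 0.280 CPM; adjusted p = 0.183), at the start of Myct1 (-86 bp, 1.97 ± 0.556 against 4.22 ± 0.847 CPM; adjusted p = 0.226), and at Tal1 (-21167 bp, 4.12 ± 0.484 against 7.004 ± 0.713 CPM; adjusted p = 0.274). None of these passed the test. The 4 lower ones with the smallest p were the start peaks of Max, Mxd1, Pknox1 and Tef, with adjusted p of 0.101 to 0.131 as single peaks.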
